A study of Mus musculus with 6 samples.

Results

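A set of 10 genes of mucosal defence was followed across mouse esophageal basal cells sorted by a Krt15 reporter. They were the 10 rows, of 24016 genes, that carry the symbols Lcn2, Ltf, Lyz1, Lyz2, Reg3g, Bpifa1, Slpi, Wfdc2, Pigr and Defb1. The set was selected on measured values, because the FPKM of several of its genes had been seen to be high only in the replicate 1 libraries of this series. Values in replicate 1 against the others are therefore given as a description, with no test. The comparison of Krt15-positive with Krt15-negative cells was tested. All 6 libraries came from mice carrying Krt15-CrePR1, a Krt15 promoter-driven Cre that RU486 (mifepristone) switches on, together with the R26mTomato/mGFP reporter, which turns from Tomato to GFP after recombination. The mice had received 1 mg of RU486, and basal cells, gated on high CD29 (the integrin beta-1 chain), were sorted 24 h later. The GFP+ cells are called Krt15-positive and the GFP- cells Krt15-negative, with 3 libraries each. GFP reports recombination, so cells that escaped it stay among the negative ones. The names do not describe Krt15 RNA, which overlapped between the groups (2350, 3412 and 6784 FPKM among the negative and 2420, 3350 and 9692 FPKM among the positive libraries in rising order, limma adjusted p = 0.93). The library names in the labels give the Krt15-negative and Krt15-positive libraries of one replicate number a shared sample number, so both replicate 1 libraries may come from one source, but what the number marks is not stated. Age, sex and the number of animals are not stated in the labels. The p-values therefore reflect how far these libraries scatter, and that scatter may be partly technical.

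Mucosal surfaces secrete proteins that starve, lyse or bind microbes and proteins that shield the tissue from proteases. Lipocalin 2 and lactoferrin sequester iron, lysozymes cut bacterial cell walls, Reg3g is a C-type lectin against Gram-positive bacteria and beta-defensins disrupt membranes. Bpifa1 coats the airway surface, the whey acidic protein (WAP) domain proteins Slpi and Wfdc2 belong to a family of protease inhibitors, and Pigr carries polymeric immunoglobulin across epithelia. Many of these genes are typical of glandular and airway secretory epithelium, whereas the mouse esophagus is lined by a stratified squamous epithelium.

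The values are FPKM, fragments normalized to transcript length and to the fragments mapped, so levels can be set beside each other between genes. Depth was estimated from the smallest steps in the values, at 27.5 to 41.6 M fragments per library (M, mega). Between 3247 and 9194 genes reached 1 FPKM, fewest in Krt15-negative replicate 1 and between 6906 and 9194 elsewhere. The basal keratinocyte markers were present in all libraries, with Krt14 at 949 to 3199 FPKM, though levels varied: in Krt15-negative replicate 1, Trp63 stood at 0.46 FPKM (30.8 or more in the other 5), Itgb1, which encodes the sorting marker CD29, at 1.03 FPKM (10.8 to 43.3) and Itga6 at 1.46 FPKM (4.30 to 18.3). An exact 0 in these files can be a failed estimate, since Krtdap, a keratinocyte differentiation gene, had a 0 in Krt15-negative replicate 3 but 7254 FPKM or more elsewhere. For that reason values at 0 are given library by library.

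Both lysozyme genes are shown first by sequence, because their similarity bears on how their values can be read. Lyz1 and Lyz2 are neighbouring copies, and their coding sequences in GENCODE M21 (GRCm38), each 444 bases long, are 95% identical. The first 150 coding bases are printed with the 14 bases that differ in capitals.
Lyz1: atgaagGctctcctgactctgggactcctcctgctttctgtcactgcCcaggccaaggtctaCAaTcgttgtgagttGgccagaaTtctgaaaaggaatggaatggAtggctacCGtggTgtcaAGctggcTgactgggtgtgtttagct
Lyz2: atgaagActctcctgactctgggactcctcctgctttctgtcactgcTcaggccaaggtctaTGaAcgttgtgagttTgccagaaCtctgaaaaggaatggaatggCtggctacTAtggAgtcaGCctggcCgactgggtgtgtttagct
Of the 50-base windows of the Lyz1 transcript, 16.1% also occur in Lyz2. The window length was a choice and was not taken from the reads of these libraries. Part of the fragments of these copies may thus not be assignable to one of them, by a share that was not measured. How the authors' counting treated such fragments is not stated in the labels.

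The 250 bases before the start site were available from RefSeq (GRCm38.p6) for 9 of the 10 genes. The values themselves come from mm9, per the submitters' processing notes, and no value was read by coordinate. Sequences are shown for Ltf, Lyz1, Lyz2 and Reg3g, which stood higher in both replicate 1 libraries than elsewhere, and for Bpifa1, which held the highest value of the set. Wfdc2, which shared that pattern, had no match in its window and is not shown. Capitals mark matches, on either strand, to AP-1 (TGANTCA), to C/EBP (TTGCNNAA) or to the kappaB consensus, and no matches overlapped.
Ltf (chr9:111019042-111019291, plus strand): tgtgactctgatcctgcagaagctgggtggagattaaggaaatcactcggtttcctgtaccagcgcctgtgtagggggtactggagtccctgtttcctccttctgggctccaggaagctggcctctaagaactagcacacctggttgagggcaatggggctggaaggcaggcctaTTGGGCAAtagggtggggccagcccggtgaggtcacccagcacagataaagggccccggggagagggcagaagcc
Lyz1 (chr10:117292869-117293118, minus strand): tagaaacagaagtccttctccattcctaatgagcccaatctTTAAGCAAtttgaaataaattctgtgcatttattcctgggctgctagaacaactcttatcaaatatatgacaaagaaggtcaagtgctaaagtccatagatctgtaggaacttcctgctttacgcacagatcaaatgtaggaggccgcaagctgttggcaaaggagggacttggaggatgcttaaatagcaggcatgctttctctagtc
Lyz2 (chr10:117282273-117282522, minus strand): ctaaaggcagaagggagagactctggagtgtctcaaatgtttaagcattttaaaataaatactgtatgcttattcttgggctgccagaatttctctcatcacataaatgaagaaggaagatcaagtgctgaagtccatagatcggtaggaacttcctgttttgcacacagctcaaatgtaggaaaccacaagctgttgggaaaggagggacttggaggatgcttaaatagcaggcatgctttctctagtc
Reg3g (chr6:78468875-78469124, minus strand): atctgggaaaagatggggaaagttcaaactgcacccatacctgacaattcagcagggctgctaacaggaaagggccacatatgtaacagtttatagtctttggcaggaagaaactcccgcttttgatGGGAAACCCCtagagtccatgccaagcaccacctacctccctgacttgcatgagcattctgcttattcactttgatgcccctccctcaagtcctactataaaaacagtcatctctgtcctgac
Bpifa1 (chr2:154142630-154142879, plus strand): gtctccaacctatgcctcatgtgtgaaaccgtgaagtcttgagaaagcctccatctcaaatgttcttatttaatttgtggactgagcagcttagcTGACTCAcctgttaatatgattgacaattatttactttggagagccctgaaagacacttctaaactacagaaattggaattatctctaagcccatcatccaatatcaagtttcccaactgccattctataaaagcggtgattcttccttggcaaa
A C/EBP match lay in 4 of the 9 windows (Lcn2, Ltf, Lyz1 and Slpi), where 9.56% of all 32851 windows of this length hold one. The kappaB consensus was matched in 1 window (Reg3g) and AP-1 in 1 (Bpifa1), against 3.9% and 6.75% of all windows. The Lyz1 and Lyz2 windows were 79.4% identical, and Lyz1 held a C/EBP match (first base at -209 from the start) while Lyz2 held none. These matches describe the letters of the windows and were not tested as binding sites.

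Of the 10 genes, 5 stood higher in both replicate 1 libraries than in any of the other 4 (Ltf, Lyz1, Lyz2, Reg3g and Wfdc2), a pattern held by 2.93% of the 9423 tested genes (those averaging 1 FPKM or more), and 0 stood lower in both (14.9%). Since the genes were chosen for this pattern, that count supports nothing. The highest value lay in a replicate 1 library for 8 of the 10 genes (23.7% of all tested genes), in the Krt15-positive one for 6 (10.5%) and in the Krt15-negative one for Bpifa1 and Slpi (13.2%). The exceptions were Lcn2 and Defb1. The summed level of the 10 genes was 14660 and 13710 FPKM in the Krt15-negative and Krt15-positive replicate 1 libraries and 437 to 1037 FPKM in the other 4. The 2 replicate 1 sums came from different genes. Bpifa1 held 11767 FPKM of the Krt15-negative sum and was at 0 in the Krt15-positive library. Lyz2 held 7279 FPKM of the Krt15-positive sum and stood at 339 FPKM in the Krt15-negative library.

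**Figure D1:**
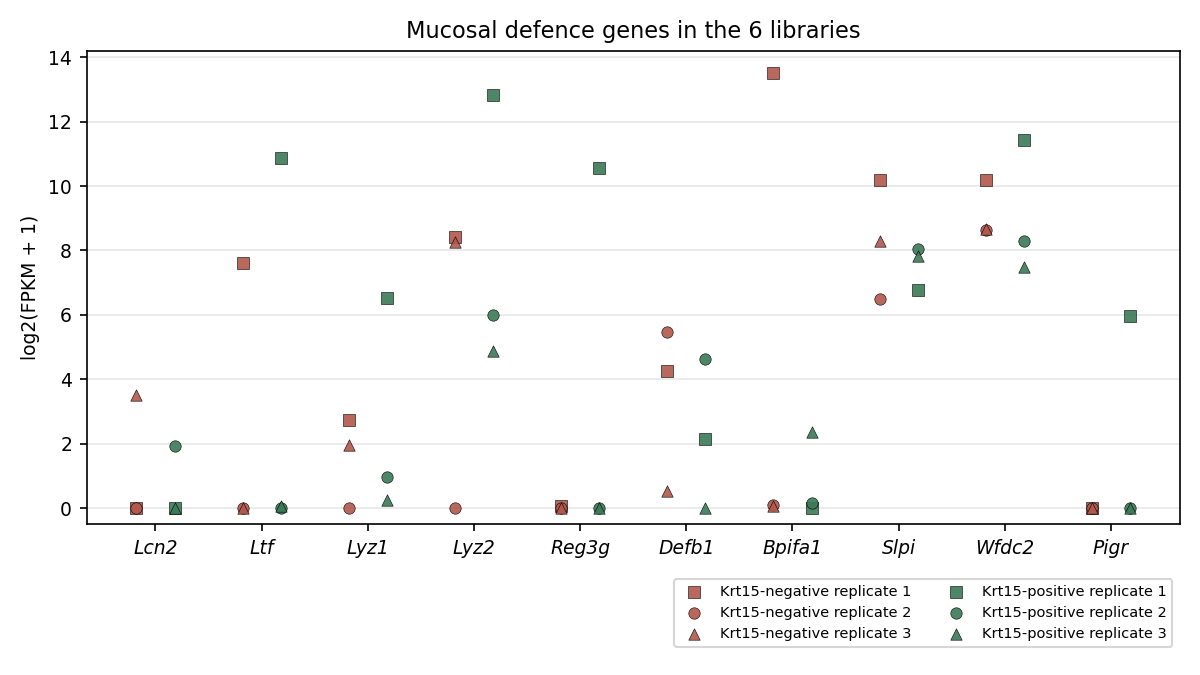
Level of each of the 10 genes as log2(FPKM + 1), with Krt15-negative libraries in red at the left of each gene, Krt15-positive ones in green at the right and the replicate number by shape (square, circle and triangle for 1 to 3). The uppermost symbol is a square for 8 of the 10 genes, and Slpi and Wfdc2 are well above 0 in every library.

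Among the iron-binding genes, Ltf (lactoferrin) stood at 195, 0 and 0 FPKM in Krt15-negative replicates 1 to 3, against 1869, 0 and 0.036 FPKM among Krt15-positive ones. It was thus abundant in both replicate 1 libraries and near absent elsewhere, where 0.036 FPKM corresponds to an estimated 3 fragments. In such bulk samples, fewer cells that express a gene and less RNA per cell cannot be told apart. Mean levels on the log2(FPKM + 1) scale were 2.54 ± 4.40 and 3.64 ± 6.26 (SD, n = 3), and the Krt15-positive mean exceeded the Krt15-negative one by 1.10 (SE 2.81, limma adjusted p = 0.93). The Ltf difference was -2.51 without Krt15-positive replicate 1 and -0.17 without either Krt15-negative replicate 2 or 3. Lcn2 (lipocalin 2, also called neutrophil gelatinase-associated lipocalin) behaved differently. It was listed at 0, 0 and 10.3 FPKM among Krt15-negative libraries, against 0, 2.77 and 0 FPKM among Krt15-positive ones. Lcn2 was the one gene of the set listed at 0 in both replicate 1 libraries, and its group ranges overlapped (difference -0.53, SE 1.12, limma adjusted p = 0.90, and 0.64 without Krt15-negative replicate 3).

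Lyz2, the lysozyme gene typical of myeloid and lung cells, stood at 339, 0 and 307 FPKM among Krt15-negative libraries, against 7279, 63.4 and 28.3 FPKM among Krt15-positive ones. Lyz1, the copy typical of Paneth cells in the gut, stood at 5.63, 0 and 2.89 FPKM against 91.1, 0.94 and 0.20. Both copies were highest in Krt15-positive replicate 1 and were listed at 0 in Krt15-negative replicate 2, and for both the groups overlapped. Lyz2 was the more abundant copy wherever either was detected. The differences were 2.35 for Lyz2 (SE 2.30, limma adjusted p = 0.80) and 1.02 for Lyz1 (SE 1.63, limma adjusted p = 0.87). Both turned below 0 without Krt15-positive replicate 1 (-0.12 for Lyz2 and -0.96 for Lyz1), and Lyz2 also without Krt15-negative replicate 2 (-0.43). Because of the shared sequence, the smaller Lyz1 values are uncertain.

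Reg3g, the antibacterial lectin, stood at 1517 FPKM in Krt15-positive replicate 1, at 0.052 FPKM in Krt15-negative replicate 1 and at 0 in the other 4 libraries. The Krt15-negative value corresponds to an estimated 3.1 fragments, so its place among the genes uppermost in both replicate 1 libraries rests on a handful of fragments. Its difference of 3.50 (SE 2.30, limma adjusted p = 0.79) was the largest positive one of the set, and it was -0.024 without Krt15-positive replicate 1. Defb1, beta-defensin 1, an epithelial defensin, stood at 18.3, 43.2 and 0.43 FPKM among Krt15-negative libraries, against 3.42, 23.9 and 0 FPKM among Krt15-positive ones. It was highest in both replicate 2 libraries and lowest in both replicate 3 libraries. The group difference was -1.16 (SE 1.59, limma adjusted p = 0.85).

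Bpifa1, also known as SPLUNC1, held the highest single value of the set. It stood at 11767 FPKM in Krt15-negative replicate 1 and at 0.071 and 0.050 FPKM in replicates 2 and 3, against 0, 0.12 and 4.15 FPKM in the Krt15-positive libraries. The 4.15 FPKM in Krt15-positive replicate 3 corresponds to an estimated 138 fragments. Apart from that value and the 11767 FPKM in Krt15-negative replicate 1, the detected values correspond to 2.18 to 4.35 fragments. The 2 replicate 1 libraries were thus at opposite ends for Bpifa1, and whether the 0 in the Krt15-positive one is a failed estimate was not tested. The difference of -3.72 (SE 2.88, limma adjusted p = 0.79) turned to 0.76 without Krt15-negative replicate 1.

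The WAP-domain genes differed from the rest in being abundant in every library. Wfdc2 (also called HE4) stood at 1169, 394 and 404 FPKM among Krt15-negative libraries, against 2780, 314 and 179 FPKM among Krt15-positive ones. Both replicate 1 libraries lay above the other 4, and the group means were close, at 9.16 ± 0.89 and 9.08 ± 2.09 (log2(FPKM + 1), SD, n = 3). The difference was -0.083 (SE 0.87, 95% CI -1.98 to 1.81, limma adjusted p = 0.98), with a sign that changed under quantile normalization (0.23). It was also above 0 without Krt15-negative replicate 1 (0.43), Krt15-positive replicate 2 (0.31) or Krt15-positive replicate 3 (0.71). Slpi, the secretory leukocyte protease inhibitor, stood at 1165, 90.0 and 312 FPKM against 109, 262 and 225 FPKM. Krt15-negative replicate 1 was highest and Krt15-negative replicate 2 lowest, so the Krt15-positive values fell within the Krt15-negative range. The difference of -0.78 (SE 0.85, 95% CI -2.64 to 1.07, limma adjusted p = 0.81) turned to 0.15 without Krt15-negative replicate 1. Pigr, the polymeric immunoglobulin receptor, stood at 62 FPKM in Krt15-positive replicate 1 and at 0 in the other 5 libraries (difference 1.99, SE 1.43, limma adjusted p = 0.79), so no difference remained without that library.

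Between Krt15-positive and Krt15-negative cells, 0 of the 10 genes passed the test at a limma adjusted p below 0.05, and 0 of all 9423 genes did (0%). At an unadjusted p below 0.05 there was again none of the 10, while 300 of all tested genes (3.18%) were higher and 70 (0.743%) lower. Adjusted p-values of the 10 genes lay between 0.79 and 0.98. For none of them did all 3 Krt15-positive values lie above, or all below, the Krt15-negative ones (8.85% and 2.44% of all tested genes). Differences were above 0 for 5 (Ltf, Lyz1, Lyz2, Reg3g and Pigr) and below 0 for the other 5, with a median of 0.47 beside 0.63 over all tested genes (68.6% above 0). Reg3g and Pigr count for nothing here, since they passed the filter only through Krt15-positive replicate 1. The median over all tested genes rests largely on Krt15-negative replicate 1. It was 0.021 without that library and 0.375 to 0.96 without any other single library. The 95% confidence intervals were wide, from -10.03 to 2.58 for Bpifa1 and from -5.05 to 7.25 for Ltf, so differences of these sizes were not detectable with these libraries. Without Krt15-positive replicate 1, 0 of the genes had a difference above 0 (Pigr was then at 0 throughout), and without Krt15-negative replicate 1 there were 8.

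**Figure D2:**
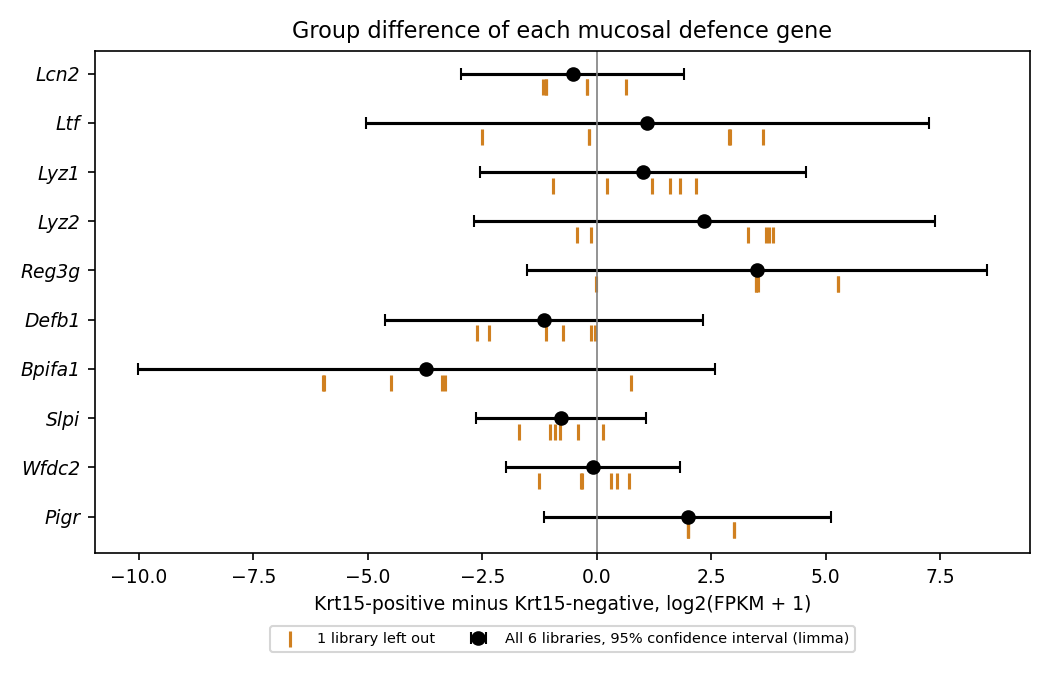
Krt15-positive minus Krt15-negative difference of each gene on the log2(FPKM + 1) scale, with points and bars for the limma estimate from 6 libraries and its 95% confidence interval, and orange ticks for the estimates with 1 library left out. Every interval spans 0, and for Bpifa1 and Reg3g a single tick near 0 lies far from the rest.

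All 10 genes passed the filter of a mean of at least 1 FPKM, but 3 of them (Ltf, Reg3g and Pigr) did so only through replicate 1, since 7 would pass on the other 4 libraries. Reg3g and Pigr passed through Krt15-positive replicate 1 alone (1517 and 62.0 FPKM). Their passing and their group difference above 0 thus rest on the same library. The replicate 1 minus others difference was 9.23 for Ltf (means 9.24 and 0.013 on the log2(FPKM + 1) scale), 6.09 for Bpifa1, 5.83 for Lyz2, 5.32 for Reg3g, 3.83 for Lyz1, 2.99 for Pigr and 2.55 for Wfdc2. It was 0.82 for Slpi, 0.55 for Defb1 and -1.35 for Lcn2. The median was 3.41, beside -0.87 over all tested genes, and rests on the way the genes were chosen. Within replicate 1, Krt15-positive exceeded Krt15-negative by 10.5 for Reg3g, 5.98 for Pigr, 4.42 for Lyz2, 3.80 for Lyz1, 3.25 for Ltf and 1.25 for Wfdc2, and was lower for Defb1 (-2.13), Slpi (-3.41) and Bpifa1 (-13.52). The genes thus did not move as one block inside replicate 1.

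**Figure D3:**
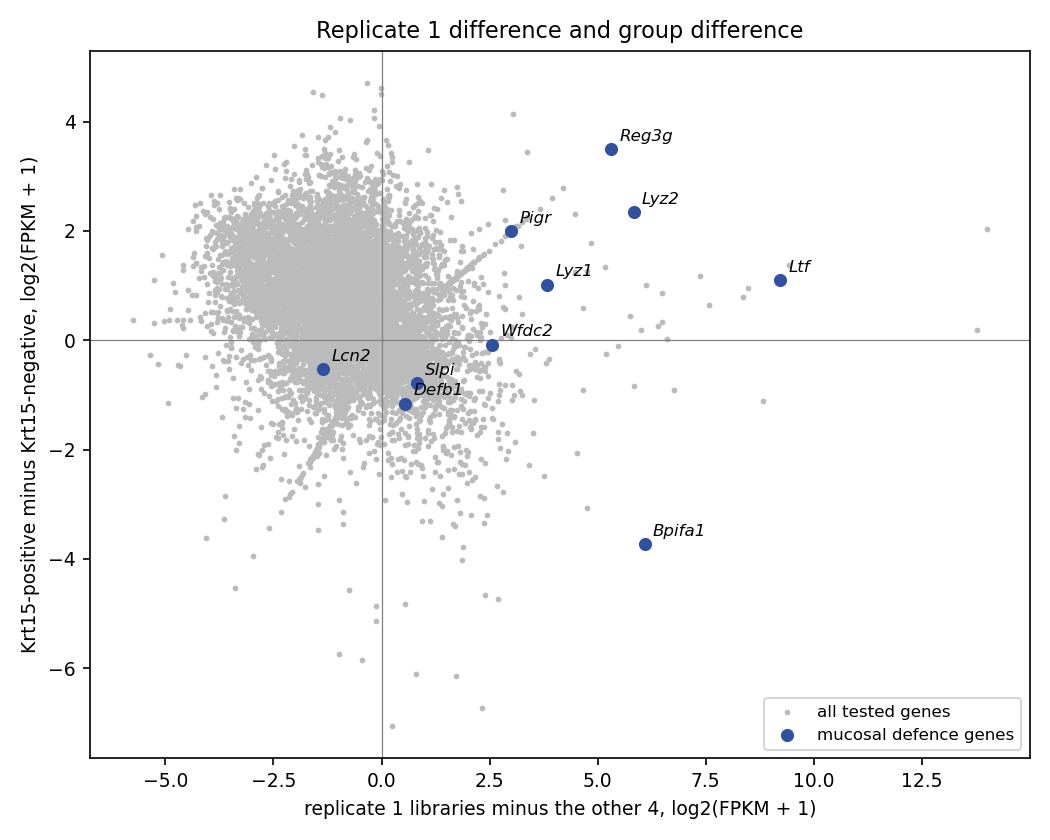
Mean of the 2 replicate 1 libraries minus the mean of the other 4 (horizontal) against Krt15-positive minus Krt15-negative (vertical), both on the log2(FPKM + 1) scale, for all tested genes (grey) and the 10 mucosal defence genes (blue). Ltf lies far to the right at 9.23 with a group difference of 1.10, and Bpifa1 at 6.09 has the lowest group difference of the set.

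Across the 6 libraries the pattern most like the mean of the 10 genes, among 4178 genes averaging 10 FPKM or more, was that of Cyp2a5, a cytochrome P450 (Pearson r = 0.98). Its values were 46.9, 0 and 2.28 FPKM among Krt15-negative and 266, 0 and 0.020 FPKM among Krt15-positive libraries. Next came Krt8, a keratin of simple epithelia (37.6 and 230 FPKM in the replicate 1 libraries, at most 0.11 elsewhere), Sec14l3, Cxcl17, a mucosal chemokine, and Sftpd, surfactant protein D, each with r of 0.98. These are likenesses over the same 6 libraries, which differ in depth and make-up, and carry no test.

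Outside the set, the 10 genes with the largest replicate 1 excess among those with both replicate 1 libraries uppermost were led by the secretoglobins, abundant secreted proteins of airway club cells. Scgb3a2 reached 53453 FPKM in Krt15-negative replicate 1 and 49560 FPKM in Krt15-positive replicate 1, and at most 8.67 FPKM elsewhere. Scgb1a1 stood at 18922 and 88098 FPKM against at most 13.3, and Scgb3a1 at 165 and 2888 FPKM against 0 in the other 4. Together Scgb1a1 and Scgb3a2 made up 6.78% and 16.4% of all summed FPKM in the replicate 1 libraries. Lypd2, Pglyrp1, Cxcl17, Sftpd, the simple-epithelium keratins Krt18 and Krt19, and Tspan1 followed, with replicate 1 excesses of 6.61 to 8.82. None of these 10 passed the limma test between Krt15-positive and Krt15-negative cells (adjusted p between 0.897 and 0.997).

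Marker lists of other cell types were set beside these values. The airway secretory list (10 genes, none of them in the set) summed to 75109 and 153320 FPKM in the replicate 1 libraries and to 1491 to 2059 FPKM in the other 4. Of its 9 tested genes, 6 were uppermost in both replicate 1 libraries (2.93% of all tested genes). Scgb3a1, Sec14l3 and Bpifb1 among them were at 0 in the other 4 libraries, so they passed the filter only through replicate 1. Bpifb1 counts through 0.022 FPKM in Krt15-negative replicate 1. The list was also chosen with earlier results of these data known, so that count supports nothing. The level of the list in the other 4 libraries came mainly from Cbr2 (838 to 1019 FPKM) and Cyp2f2 (566 to 988 FPKM). Cyp2f2 was lowest in Krt15-negative replicate 1 (263 FPKM) and highest in Krt15-positive replicate 1 (3845 FPKM). Cldn10, an epithelial claudin, was also lowest in Krt15-negative replicate 1 (0.24 FPKM), while Krt15-positive replicate 1 (58.7 FPKM) lay within the range of the other 4, whose highest value was 75.3 FPKM. The alveolar list without Lyz2 (8 genes) summed to 152 and 415 FPKM in replicate 1 and to at most 0.41 elsewhere, chiefly Sftpd (102 and 368 FPKM) and Sftpa1 (48.5 and 38.2 FPKM). The type I cell marker Ager was listed at 0 in all 6 libraries, and Sftpc stood at 7.90 FPKM in Krt15-positive replicate 1 and at 0 elsewhere. The summed levels of both lists moved with the replicate 1 excess of Ltf, Lyz1, Lyz2, Reg3g and Wfdc2, and the part of these cell types in it was not tested. Single genes of the lists did not all follow the sums.

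**Figure D4:**
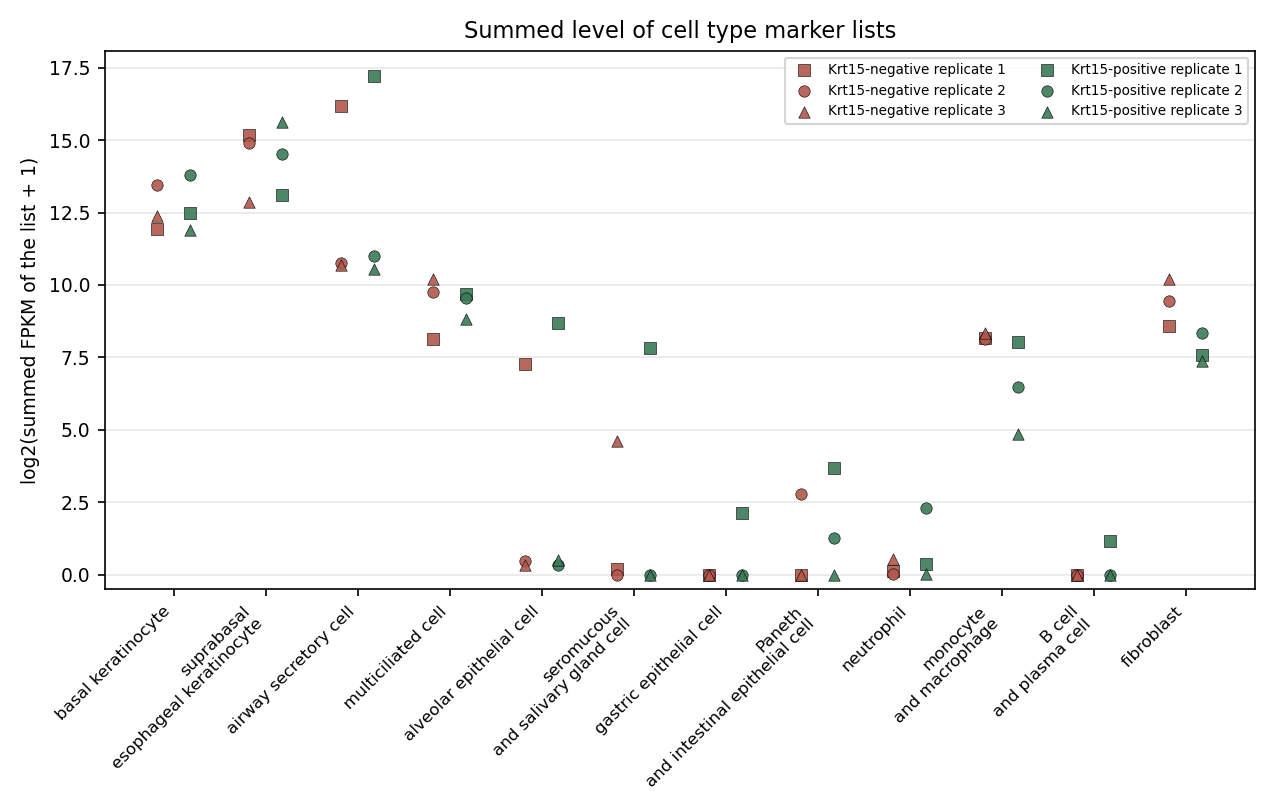
Summed FPKM of each marker list per library as log2(sum + 1), with genes of the mucosal defence set left out, colours for the groups and shapes for the replicate number as in the plot of single genes. The squares (replicate 1) stand apart for the airway secretory and alveolar lists, while the basal keratinocyte list overlaps between replicate 1 (3927 and 5686 FPKM) and the others (3859 to 14089 FPKM).

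Krt4 and Krt13, the main keratins of suprabasal esophageal cells, were lower in both replicate 1 libraries than in any other. Krt4 stood at 1108 and 606 FPKM there and at 3678 to 6295 FPKM elsewhere, and Krt13 at 1066 and 847 FPKM against 3212 to 3771 FPKM. The cornification genes Krtdap, Sbsn and Lor did not separate replicate 1 in this way. The part of suprabasal cells in the replicate 1 values was not tested. Of 9 tested fibroblast genes, 7 were lower among Krt15-positive libraries at an unadjusted p below 0.05 (0.743% of all tested genes). None passed the adjusted test (smallest limma adjusted p = 0.58), and the median difference was -2.63. Mfap5, a microfibril protein gene, for example, ranged from 38.8 to 103 FPKM among Krt15-negative libraries, against 0.074 FPKM or less among Krt15-positive ones. Their part in the group differences of the mucosal defence genes was not tested.

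Leukocytes make several of the same proteins, so their markers are given too. Of 11 neutrophil genes with a row, 10 stayed under 1 FPKM in all 6 libraries and the summed level was at most 3.91 FPKM. Mpo, Elane and Camp, neutrophil granule genes, were listed at 0 throughout, including where Ltf stood at 195 and 1869 FPKM. An exact 0 can be a failed estimate, and the part of neutrophils in the Ltf values was not tested. The monocyte and macrophage list summed to 263 and 289 FPKM in replicate 1 and to 27.7 to 322 FPKM in the others. In Krt15-positive replicate 1, where Lyz2 reached 7279 FPKM, Csf1r stood at 1.27 FPKM and Cd14 at 260 FPKM. Tyrobp, Adgre1 (row Emr1) and Itgam were listed at 0 there. The part of monocytes and macrophages in the Lyz2 values was not tested. The defining gastric genes were at 0 in 10 of 11 cases, Paneth and intestinal genes at 0 in 6 of 8, and salivary and seromucous genes at 0 in 10 of 13, apart from Aqp5 (224 FPKM in Krt15-positive replicate 1 and 23.4 FPKM in Krt15-negative replicate 3). Of the B and plasma cell genes 4 of 5 were at 0, as were Foxj1 and 5 more of the 10 multiciliated genes. Tppp3 of the multiciliated list stood at 279 to 1187 FPKM in all libraries.

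Other genes of mucosal defence were taken from 4 lists of 72 measured genes in all, of which 31 had a mean of at least 1 FPKM. None of the 31 passed the limma test between Krt15-positive and Krt15-negative cells (smallest adjusted p = 0.79). Their differences were above 0 for 23 of the 31, beside 68.6% of all tested genes. The median was 0.98 beside 0.63 over all tested genes, and the latter was 0.021 without Krt15-negative replicate 1. The share of 68.6% was not recounted without that library. One gene, Wfdc17, a WAP-domain gene, is named here because it was the only one at an unadjusted p below 0.05. Of all tested genes, 3.18% were higher and 0.743% lower at that level. Wfdc17 stood at 204, 23.3 and 259 FPKM among Krt15-negative libraries, against 16.4, 36.7 and 0.096 FPKM among Krt15-positive ones (difference -3.60, SE 1.43, limma adjusted p = 0.79). Beside it, all 9 tested monocyte and macrophage markers had differences below 0 (median -1.48), where 68.6% of all tested genes were above 0. Among them was Tyrobp, a myeloid adaptor, with -3.46 (limma adjusted p = 0.79), and 7 fibroblast markers were lower as given above. Their part in the Wfdc17 values was not tested.

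Among 28 further antimicrobial genes, 9 were tested and 16 were listed at 0 in all libraries, including Reg3b, the close relative of Reg3g. Pglyrp1, a peptidoglycan recognition protein, stood at 138 and 958 FPKM in the replicate 1 libraries and at most 0.058 FPKM elsewhere. Bpifb1, of the same family as Bpifa1, stood at 230 FPKM in Krt15-positive replicate 1, at 0.022 FPKM in Krt15-negative replicate 1 and at 0 in the other 4. Bpifb1 and Bpifa1 thus peaked in opposite replicate 1 libraries. Whether the 0 listed for Bpifa1 in Krt15-positive replicate 1 is a failed estimate was not tested. Defb14 stood at 125, 0 and 11 FPKM among Krt15-negative libraries, against 0, 21.5 and 0.17 FPKM among Krt15-positive ones. Rnase4, a secreted ribonuclease, was lowest in Krt15-negative replicate 1 (8.83 FPKM) and between 62.3 and 182 FPKM in the other 5.

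Of 12 WAP-domain and antiprotease genes, 7 were tested. Cst3 (cystatin C) was abundant in all libraries at 379 to 1262 FPKM, with a difference of 0.030 (SE 0.47, limma adjusted p = 0.99). Cst6 stood at 2.07 to 34.9 FPKM. Wfdc15b stood at 189 FPKM in Krt15-negative replicate 1 and 65.4 FPKM in Krt15-positive replicate 3 and at 0.62 FPKM or less in the other 4. Of the mucins, trefoil factors and immunoglobulin partners, Muc1, a membrane mucin, was the only tested gene, at 74.7 FPKM in Krt15-positive replicate 1 and at most 0.015 FPKM elsewhere. Muc5b, Muc4 and Tff2 were likewise seen chiefly in that library, at 4.60, 3.42 and 3.36 FPKM, and the J chain gene (row Igj), the partner of Pigr cargo, was listed at 0 in all 6.

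Inducers of these genes were measured too. Of 23 cytokines, receptors and factors, 14 were tested. Among these, 1 (Elf3, an epithelial ETS factor) was uppermost in both replicate 1 libraries (2.93% of all tested genes), at 104 and 70.7 FPKM against 19.9 to 46 FPKM. Cebpb stood at 199 to 432 FPKM, Myd88, the adaptor of Toll-like receptors, at 25.3 to 103 FPKM and Ehf, another ETS factor, at 13.3 to 77.3 FPKM, with replicate 1 inside or below the range of the others. Il17a and Il22, cytokines that induce Lcn2 and Reg3g, were listed at 0 in all libraries, as was the receptor gene Il22ra1. Other receptor genes of the list were detected. Il17rc and Il10rb were at 0 in Krt15-negative replicate 1 and at 14.6 to 78.1 and 6.08 to 16.2 FPKM elsewhere. Il17ra reached at most 7.59 FPKM. Whether these cytokines acted on the cells was not tested.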

How the data were processed

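RNA was profiled from sorted basal cells with a SMART-Seq v4 kit, per the labels' protocols, which does not mark strand. The deposited table holds FPKM values made by the authors. STAR 2.5, Cufflinks 2.2.1, DESeq2 and mm9 are named, per the submitters' processing notes, without roles. Neither annotation nor filters are given in the sources used here. Of 24043 rows, 27 whose symbols had become dates were left out. Members and gene lists were chosen with earlier results of these data known.

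The 9423 genes averaging 1 FPKM or more were compared on the log2(FPKM + 1) scale by limma 3.58.1 under R 4.3.3 (limma-trend, group as the only term, all 6 libraries), with Benjamini-Hochberg adjustment and a threshold of 0.05. The fit was tested on simulated data. At the observed spread, smoothed over genes of like level, it recovered 109 of 200 genes changed by 4 on the log2 scale and 12 of 200 changed by 2 (9423 genes, Krt15-positive against Krt15-negative). The simulated noise was normal and independent, without exact 0 values or an effect shared within a replicate number. These recoveries therefore do not carry over to genes of larger spread, such as Ltf (SD 4.40 and 6.26 in the 2 groups). Depth came from 1-fragment steps in genes with 1 transcript of at least 1500 bases, and fragment numbers use the longest GENCODE transcript. Both are approximate. All members are named. Of each pathway list up to 4 genes of highest mean are named, with the 5 genes most like the members and the 10 with the largest replicate 1 excess. Reg3b, the J chain gene, Il17a, Il22 and the interleukin receptor genes are named outside that rule. Of 175 list symbols, 4 matched by synonym and 3 had no row. Alternatives changed the pseudocount, filter, scaling, library weights, block and libraries.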

Additional observations from a re-analysis of the deposited data

How the results depend on the processing

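The count of genes passing the test between Krt15-positive and Krt15-negative cells was 0 in all settings but library weights (8, none of them among the 10 genes), also without both replicate 1 libraries. The number of the 10 genes with a difference above 0, 5 with all libraries, ranged from 0 to 8 with 1 library left out. The number uppermost in both replicate 1 libraries, also 5, stayed at 5 in every setting where it was counted and both were kept. With 1 of them left out, only the remaining one has to be uppermost, which is a looser measure. That number was 6 without Krt15-negative replicate 1 and 7 without Krt15-positive replicate 1. The median replicate 1 minus others difference, 3.41, was 5.01 with a pseudocount of 0.1, 2.48 with a pseudocount of 5 and 4.18 with upper-quartile scaling, and ranged from 1.93 to 4.45 with 1 library left out. These shifts follow in part from the scale, since a smaller pseudocount widens differences from values near 0.

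None of the 10 genes passed the test in any setting, and the cause of the changes in sign below was not tested. The difference of Wfdc2 turned to 0.23 under quantile normalization and to 0.60 under library weights, which also turned that of Defb1 to 0.95. Without both replicate 1 libraries the differences turned to -0.37 for Lyz1, 1.18 for Bpifa1 and 0.53 for Slpi, and Reg3g and Pigr were at 0 throughout. With 1 library left out, Lcn2 ranged from -1.17 to 0.64, Ltf from -2.51 to 3.64, Lyz1 from -0.96 to 2.18, Lyz2 from -0.43 to 3.86, Reg3g from -0.024 to 5.26, Bpifa1 from -5.97 to 0.76, Slpi from -1.69 to 0.15 and Wfdc2 from -1.27 to 0.71. Defb1 (-2.61 to -0.027) kept its sign. Pigr was at 0 throughout without Krt15-positive replicate 1 and ranged from 1.99 to 2.99 without any other single library. The genes at an unadjusted p below 0.05 numbered 370, or 572 without the filter, 123 at a mean of at least 5 FPKM, 843 with library weights and 243 without both replicate 1 libraries. With 1 library left out there were 212 (Krt15-positive replicate 2) to 585 (Krt15-negative replicate 3).

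Same-numbered libraries deviated from their group means with correlations of 0.13, 0.17 and 0.0089 for replicates 1 to 3, and not every library correlated best with its own number. Such correlations cannot decide whether the libraries are pairs, because what the shared number marks is not stated. The main fit did not take the numbers as pairs, so any effect shared within a replicate number stayed in its SE and p-values. A replicate block called 0 genes, with 479 at an unadjusted p below 0.05, left every estimate as it was and gave adjusted p-values of 0.74 to 0.96 for the 10 genes. The SE was smaller with the block for all of the 10 genes but Lcn2 (1.159, against 1.117 without it). It was 1.185 against 2.808 for Ltf, 1.374 against 2.298 for Lyz2 and 0.4768 against 0.8657 for Wfdc2.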
